A study of Mus musculus with 9 samples.

Results

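Apoe, the gene for apolipoprotein E, was read in the lungs of 9 male C57BL/6J mice from 1 named probe, A_51_P171999, which is spotted 10 times on each 1-colour Agilent array. It is 1 of 46 genes for which the arrays carry a probe that could be named through its accession, and its probe is 1 of 60691 probes read. Most probes could not be named, so other probes of Apoe may be among them. The control mice (n = 3) received a normal diet and sterile saline. The HFD mice (n = 3) received sterile saline and were fed a high-fat diet (60% of energy as fat). The HFD + LPS mice (n = 3) received the same high-fat diet and then lipopolysaccharide (LPS), a bacterial endotoxin instilled into the trachea to injure the lung, 24 h before the tissue was taken. Each diet was given for 12 weeks, and the labels give an age of 20 weeks for all groups and body weights of 31 ± 0.5 g for the control group and 45 ± 0.5 g for both HFD groups. RNA of the upper and middle lobes of the right lung of each mouse was placed on 1 array. No group received LPS on the normal diet, so the effects of LPS with and without the high-fat diet cannot be told apart.

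Apolipoprotein E is a secreted protein that binds lipids on lipoprotein particles and delivers them to cells through receptors of the LDL receptor family. It also takes up cholesterol that cells release through the transporters ABCA1 and ABCG1, which makes it a carrier in both directions. The liver is its main source in blood, and macrophages, alveolar macrophages of the lung included, make it locally. The tissue here is bulk lung, in which fewer cells of a type and less RNA per cell cannot be told apart.

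Between 32.5% and 55.6% of the probes of an array were well above background, with the lowest share on HFD + LPS replicate 2, and 0 spots were saturated. Pairs of arrays within a group had an r of 0.924 to 0.970 across probes. Slides were numbered by the scan date in the file headers. By this, all arrays were on slide 1 apart from HFD + LPS replicate 3, which was alone on slide 2. Row 1 of the slides carried the 3 control mice, HFD replicate 1 and HFD + LPS replicate 3, and row 2 carried the remaining 4 mice. Of 65 marker genes listed for lung epithelium, endothelium, fibroblasts, macrophages, neutrophils, lymphocytes, adipocytes and the response to LPS, 0 have a named probe, so neither the tissue nor its cell makeup could be checked by these markers. Mzb1, a gene of antibody-secreting cells outside this list, has a named probe. It was lower than in control in HFD (log2 fold change -0.73) and in HFD + LPS (-1.33), each with an adjusted p above 0.05 in limma.

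Apoe was among the clearly detected transcripts on every array. All 90 of its spots were well above background, 0 were saturated, and the median spot stood between 240- and 529-fold above its local background. Outlier flags of the scanner software removed 4 spots (1 on HFD replicate 2, 2 on HFD replicate 3 and 1 on HFD + LPS replicate 3), which left 86. Within an array the spots spread by an SD of 0.032 to 0.096 (log2, median 0.078), so that the mean over the spots of an array had a standard error of 0.011 to 0.030. These errors describe repeated spots of a single RNA sample and say nothing about the difference between mice.

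Expressed as log2 intensity minus the 75th percentile of all probes on the same array (the normalised level), Apoe was 6.48, 6.42 and 5.89 in control replicates 1, 2 and 3. It was 6.06, 6.35 and 6.31 in the HFD replicates, and 6.54, 6.29 and 5.43 in the HFD + LPS replicates. HFD + LPS thus held both the highest and the lowest of the 9 mice, control replicate 3 was the second lowest, and the 3 groups overlapped. On a linear scale, Apoe was 43.0 times the 75th percentile on HFD + LPS replicate 3 and 93.1 times on HFD + LPS replicate 1, with a median over the 9 arrays of 6.31 on the log2 scale. The whole range was 1.11 (log2), or 2.17-fold. The group means were 6.26 ± 0.32 (SD, n = 3) in control, 6.24 ± 0.16 (SD, n = 3) in HFD and 6.09 ± 0.59 (SD, n = 3) in HFD + LPS.

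**Figure D1:**
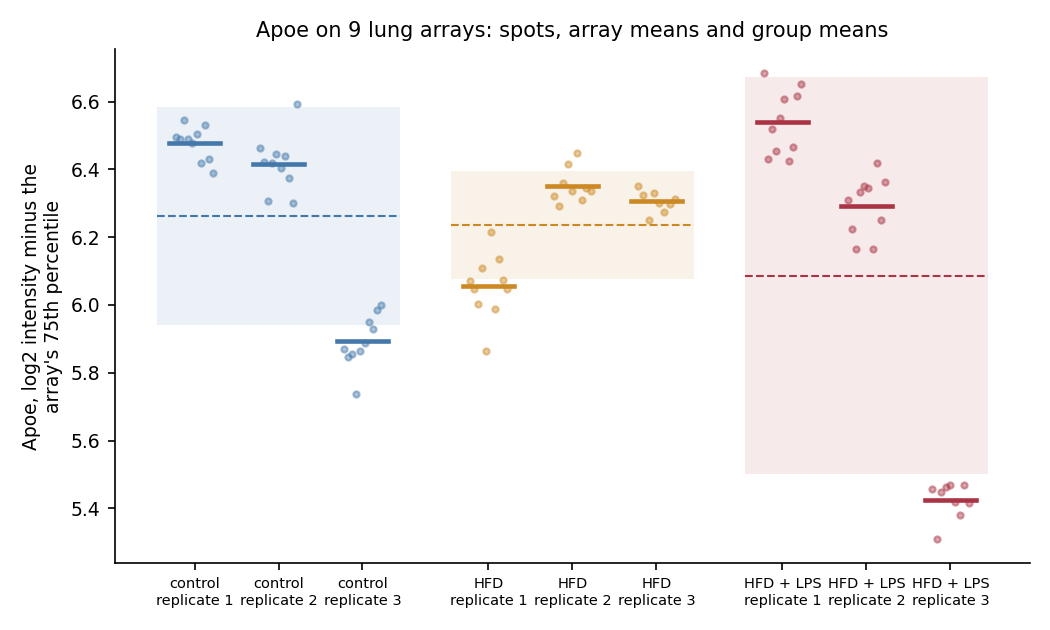
Apoe in each mouse, as log2 intensity minus the 75th percentile of the array (vertical axis), for the 3 control, 3 HFD and 3 HFD + LPS arrays (horizontal axis). Points are spots, solid bars the mean of an array, dashed lines the group means, and shaded boxes the group mean ± SD over 3 mice. The spots of an array lie close together, while array means run from 5.43 to 6.54, both in the HFD + LPS group.

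The order of the 3 group means was control, HFD and HFD + LPS from high to low, but neighbours in this order did not differ beyond the spread between mice. The within-group SD was 0.40 (log2, over 9 arrays), which is 5.10 times the median SD between spots of an array. Repeated spots leave out the error of labelling, hybridisation and scaling, which cannot be told apart from the difference between mice with 1 array per mouse. Without HFD + LPS replicate 3, the within-group SD was 0.24 and the mean of the HFD + LPS group was 6.42, above both other groups.

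Before normalisation the order of the groups was the opposite. The mean intensity of the Apoe spots (geometric mean) was 4365, 4341 and 3208 in the control mice, 2923, 6106 and 4682 in the HFD mice, and 6541, 4988 and 4113 in the HFD + LPS mice. The group means were 11.94 ± 0.25 in control, 12.09 ± 0.54 in HFD and 12.32 ± 0.34 in HFD + LPS (log2 intensity, SD, n = 3 each), so intensity was highest where the normalised level was lowest. The brightness of the whole array moved the same way, with a 75th percentile of 5.68 ± 0.07 in control, 5.86 ± 0.38 in HFD and 6.24 ± 0.31 in HFD + LPS (log2, SD, n = 3 each). HFD + LPS replicate 3 was the brightest of the 9 arrays, with a 75th percentile of 6.58, and its Apoe intensity was the third lowest. The part of array brightness in the normalised values of Apoe was not tested apart from the covariate fit given with the other settings.

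**Figure D2:**
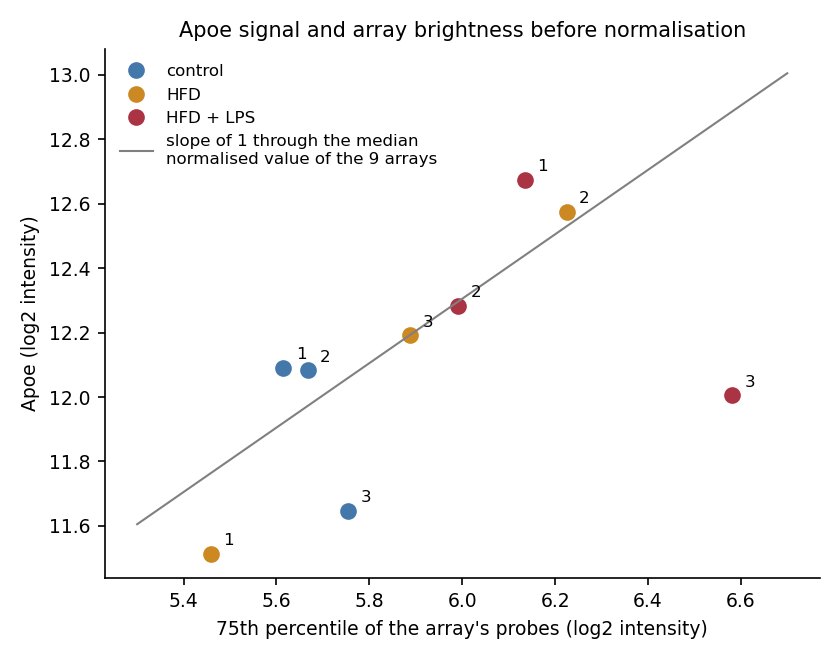
Apoe intensity (log2, vertical axis) against the 75th percentile of all probes of the same array (log2 intensity, horizontal axis), 1 point per mouse, numbered by replicate and coloured by group. The grey line marks a normalised level of 6.31, the median of the 9 arrays. Most arrays lie near the line, and HFD + LPS replicate 3, at 6.58 on the horizontal axis, lies far below it.

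The first comparison asks whether 12 weeks of high-fat diet changed lung Apoe. Compared with control, HFD mice had a log2 fold change of -0.025 (95% interval -0.71 to 0.66, standard error 0.31, n = 3 each), with an adjusted p of 1.00 in limma. On the linear scale the interval reached from 0.61-fold to 1.58-fold. The HFD values of 6.06 to 6.35 lay inside the control range of 5.89 to 6.48, and a two-sided exact permutation test gave p = 0.9, where 3 mice against 3 allow no p below 0.1. Over all probes tested in this comparison, limma called 0 of 29978 (0%) at an adjusted p under 0.05. Without adjustment limma listed 1353 probes (4.51%) at the same threshold. The change of Apoe was close to the median change of all probes (0.022), and 7.29% of the probes had a smaller change in either direction.

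The comparison of HFD + LPS with HFD asks what LPS added in obese mice. The log2 fold change of Apoe was -0.15 (95% interval -0.83 to 0.53, standard error 0.31, n = 3 each) at an adjusted p of 0.830 in limma, with an interval from 0.56-fold to 1.45-fold. The values overlapped, with 1 HFD + LPS mouse above all HFD mice, 1 within their range and 1 below it (two-sided exact permutation test, p = 0.8). Here limma called 74 of 29698 probes (0.249%), 54 of them higher (0.182%) and 20 lower (0.0673%). This count was 12, 44 and 0 without HFD replicates 1, 2 and 3, and 467, 15 and 41 without HFD + LPS replicates 1, 2 and 3. The median change of all probes was -0.050, and 25.1% of probes had a smaller change than Apoe.

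HFD + LPS was also set against control, which combines diet and LPS and shares its arrays with the other comparisons. Apoe had a log2 fold change of -0.18 (95% interval -0.85 to 0.50, standard error 0.30, n = 3 each) at an adjusted p of 0.753 in limma, with an interval from 0.55-fold to 1.42-fold. The exact permutation test gave p = 0.7 (two-sided), and the control range of 5.89 to 6.48 lay wholly inside the HFD + LPS range. In this comparison limma called 1133 of 28264 probes (4.01%), 517 higher (1.83%) and 616 lower (2.18%). This count was 15, 9 and 412 without control replicates 1, 2 and 3, and 889, 42 and 495 without HFD + LPS replicates 1, 2 and 3. With the row block or the brightness covariate it was 0. With 3 mice per group, any change of Apoe within these intervals remained possible, and the intervals do not show that the groups were alike. They are not adjusted for the number of probes tested, so they do not give the change needed to pass the adjusted threshold.

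The sign of each difference depended on the scaling and on single mice. Without HFD + LPS replicate 3, the log2 fold change turned to 0.18 for HFD + LPS vs. HFD (adjusted p = 0.731) and to 0.15 for HFD + LPS vs. control (adjusted p = 0.727, both in limma). For HFD vs. control, the value was 0.083 without control replicate 1, 0.052 without control replicate 2 and 0.066 without HFD replicate 1, all positive. Without normalisation between arrays, all 3 differences were positive, at 0.15, 0.23 and 0.38 in the order of the comparisons above, and with array brightness as a covariate they were 0.066, 0.041 and 0.11. With the row on the slide as a block they were -0.45, -0.15 and -0.60. In each comparison Apoe passed the adjusted threshold in 0 of 22 other settings, the methods' t-test included. For HFD vs. control that test listed 1783 of all probes without adjustment and 0 after it.

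**Figure D3:**
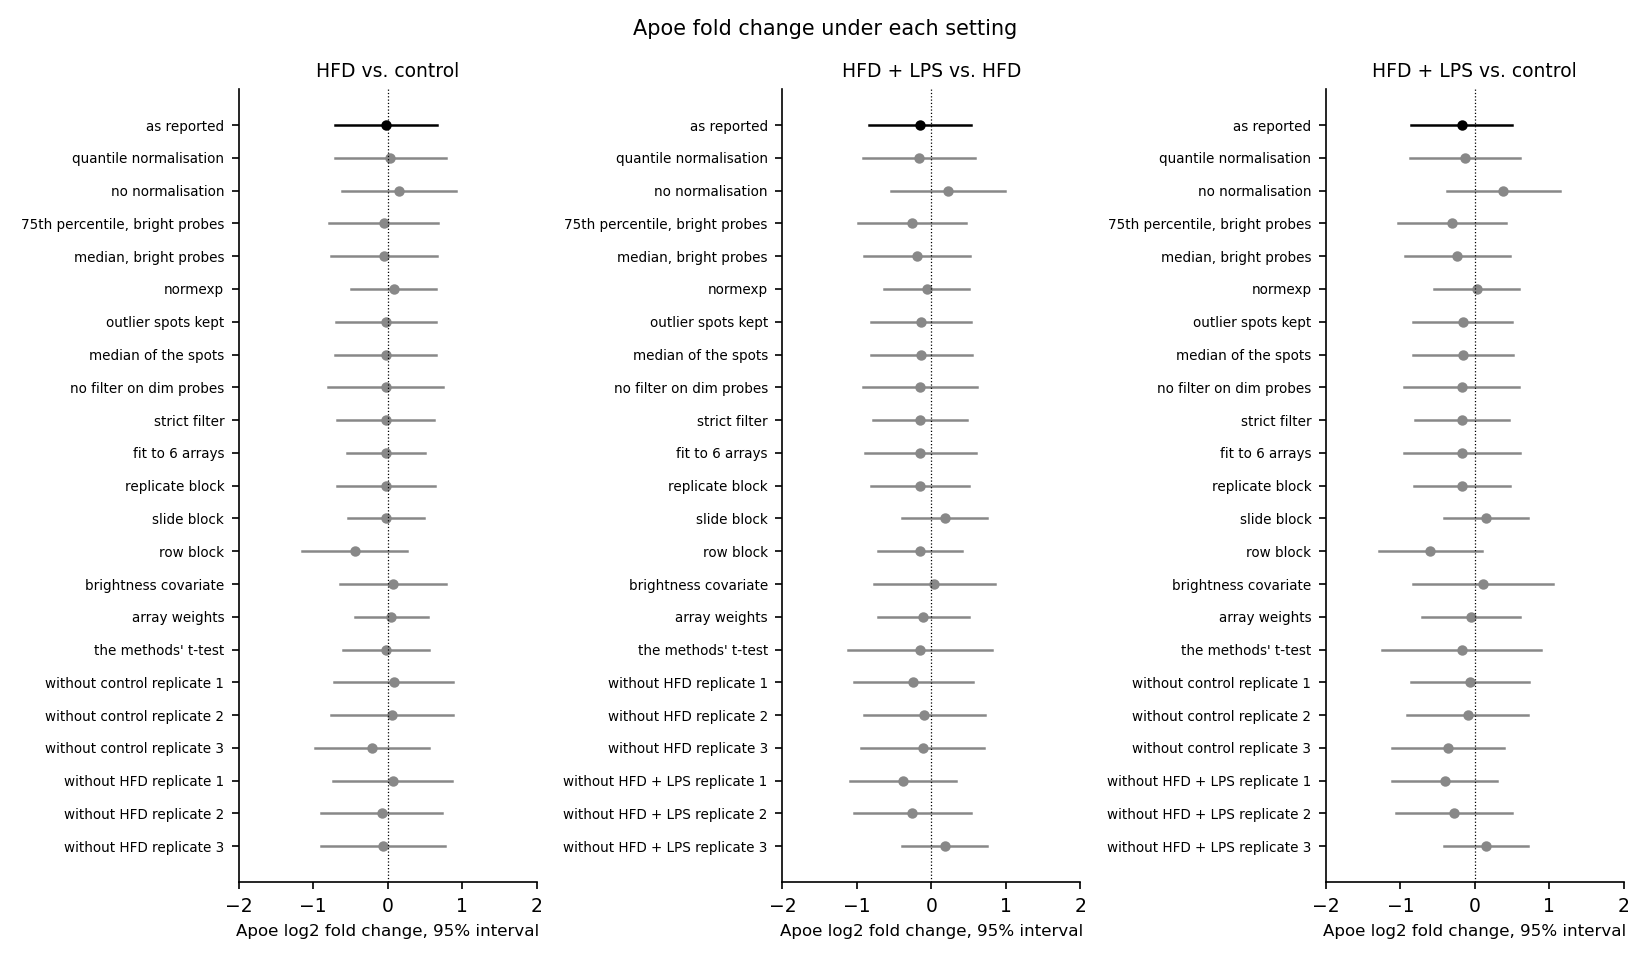
Log2 fold change of Apoe (horizontal axis, points) with its 95% interval (lines) under the reported setting (black) and 22 others (grey, vertical axis), for HFD vs. control, HFD + LPS vs. HFD and HFD + LPS vs. control. Array replicates left out in turn are the lowest 6 settings of each panel. Points lie on both sides of 0 in each comparison, and every interval spans 0.

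Within a row of the slide, HFD replicate 1 was lower than the mean of the 3 control mice by a log2 difference of -0.21. In row 1, HFD + LPS replicate 3 differed from HFD replicate 1 by -0.63 and from the control mean by -0.84. In row 2, where 2 HFD + LPS mice met 2 HFD mice, the difference was 0.088. The negative differences of both HFD + LPS comparisons thus came from the single HFD + LPS mouse in row 1, which lay below every other array of that row. It was also the only array on slide 2, and slide, scan date and mouse cannot be told apart for it.

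HFD + LPS replicate 3 remained the lowest of the 9 mice for Apoe under 4 other scalings. After quantile normalisation, Apoe was 12.36, 12.27 and 11.82 in control, 11.92, 12.36 and 12.27 in HFD, and 12.61, 12.18 and 11.27 in HFD + LPS (log2). Normexp background correction was run on the median signal, and fits a model of the remaining background after the local background is subtracted. With it, the lowest value was 4.77 and the highest 5.72 (normalised log2), again in HFD + LPS replicates 3 and 1. The same mouse was lowest when the 75th percentile or the median was taken over the probes bright on all arrays, at 2.46 and 4.11. It was not the lowest in intensity, before any scaling.

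The place of Apoe's spread among the probes that were well above background on all 9 arrays rested on HFD + LPS replicate 3. Over all arrays its within-group SD of 0.40 (log2) stood against a median of 0.30 over 17932 such probes (quartiles 0.22 and 0.40), and 73.4% of them had a smaller SD. Among the 27 of these probes with a gene symbol, the median was 0.25 and 22 had a smaller SD than Apoe. Without HFD + LPS replicate 3 the SD of Apoe was 0.24 against a median of 0.27, with a smaller SD for 39.5% of all these probes and for 13 of the 27. With any other array left out, the SD of Apoe was 0.36 to 0.43, and 67.8% to 79.2% of the probes had a smaller one. These are descriptions of 9 arrays, without a test.

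A list of 62 genes of lipid transport and handling (apolipoproteins, lipoprotein receptors, cholesterol transporters, fatty acid uptake, storage and oxidation) was compared with the named probes, and 5 of its genes had one. Besides Apoe these were Cpt1a, whose product imports long-chain fatty acids into mitochondria, Acaa2, whose product carries out the last step of mitochondrial fatty acid oxidation, Cav2, whose product is a protein of caveolae, and Ppara, a nuclear receptor that switches on fatty acid oxidation genes. All 5 passed the filter on dim probes in the 3 comparisons. Apoe is the only apolipoprotein among them. Its neighbours on mouse chromosome 7, among them Apoc1, Apoc4 and Apoc2 on one side and Tomm40 and Nectin2 on the other, have no named probe, so whether the cluster moves together was not tested.

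In HFD vs. control, 0 of the 5 lipid genes passed the adjusted threshold in limma, as did 0% of all probes, and 2 of the 5 had an unadjusted p under 0.05, against 4.51% of all probes. The latter count was 1 without control replicate 1, HFD replicate 2 or HFD replicate 3, where Cav2 no longer passed, and 3 after normexp, where Acaa2 also passed. Cpt1a was 2.23, 2.73 and 2.63 in the control mice and 3.51, 3.85 and 3.66 in the HFD mice (normalised log2). These groups did not overlap, and Cpt1a differed by 1.14 ± 0.26 (log2 fold change ± standard error) at an adjusted p of 0.864 in limma. Cav2 was 3.89, 4.51 and 4.35 in control and 4.80, 4.95 and 4.997 in HFD, again without overlap, and differed by 0.66 ± 0.24 at an adjusted p of 1.00 in limma. Groups that did not overlap were found for 11.8% of all probes in this comparison, and for 12 of the 39 named probes tested. Acaa2 and Ppara overlapped, with log2 fold changes of 0.29 (0.18 to 0.41 with single arrays left out) and -0.18 (-0.43 to 0.091, a change of sign). The median over the 5 genes was 0.29, and 0.48 without Apoe, against 0.022 over all probes tested.

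In HFD + LPS vs. HFD, 0 of the 5 genes passed the adjusted threshold in limma and 0 had an unadjusted p under 0.05, against 0.249% and 18% of all probes. The HFD + LPS values were 4.08, 3.85 and 3.29 for Cpt1a, 5.26, 4.85 and 5.36 for Cav2, and 6.38, 6.44 and 6.16 for Acaa2 (normalised log2). All 5 genes overlapped with their HFD values, while groups that did not overlap were found for 22.9% of all probes and for 11 of the 40 named probes tested. The log2 fold changes were 0.069 for Cpt1a, 0.24 for Cav2, 0.16 for Acaa2 and -0.20 for Ppara. With single arrays left out, Cav2 ranged from 0.14 (without HFD + LPS replicate 3) to 0.39 (without HFD + LPS replicate 2) and Acaa2 from 0.10 (without HFD + LPS replicate 2) to 0.25 (without HFD replicate 3 or HFD + LPS replicate 3). Cpt1a and Ppara changed sign. Cav2 was 0.068 with the brightness covariate and 0.62 with no normalisation. Acaa2 was 0.058 with the 75th percentile over bright probes and 0.54 with no normalisation. In this comparison the median over the 5 genes was 0.069, and 0.12 without Apoe, against -0.050 over all probes.

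In HFD + LPS vs. control, 1 of the 5 lipid genes was called higher and 0 lower, against 1.83% and 2.18% of all probes. Cpt1a rose by 1.21 ± 0.26 (log2 fold change ± standard error) at an adjusted p of 0.0380 in limma, and was higher in 3 of 3 mice than in any control mouse. This call was lost when control replicate 1, 2 or 3 or HFD + LPS replicate 1 or 2 was left out, with adjusted p-values of 0.135, 0.0959, 0.0670, 0.0667 and 0.0813 in that order, and with the row on the slide as a block (0.218). It was also lost with quantile normalisation (0.0637), the 75th percentile over bright probes (0.0507), no filter (0.173), a fit to the 6 arrays (0.0624), the replicate block (0.0514), the brightness covariate (0.240) and the methods' t-test (0.177). Over these settings, in which the call was lost, the log2 fold change of Cpt1a stayed between 0.90 with the row block and 1.31 without control replicate 2. The range leaves out the settings that kept the call, no normalisation between arrays among them. Cav2 differed by 0.91 ± 0.24 (adjusted p = 0.0583) and Acaa2 by 0.45 ± 0.21 (adjusted p = 0.202, both in limma). Neither passed, although neither overlapped with control, which was the case for 29.9% of all probes and for 15 of the 36 named probes tested. The median over the 5 genes was 0.45, and 0.68 without Apoe, against -0.017 over all probes. Apoe and Ppara, at -0.18 and -0.38, were the genes with a negative value, and the control values of Ppara were -0.88, -0.048 and -0.66 against -0.097, -1.67 and -0.96 in HFD + LPS.

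**Figure D4:**
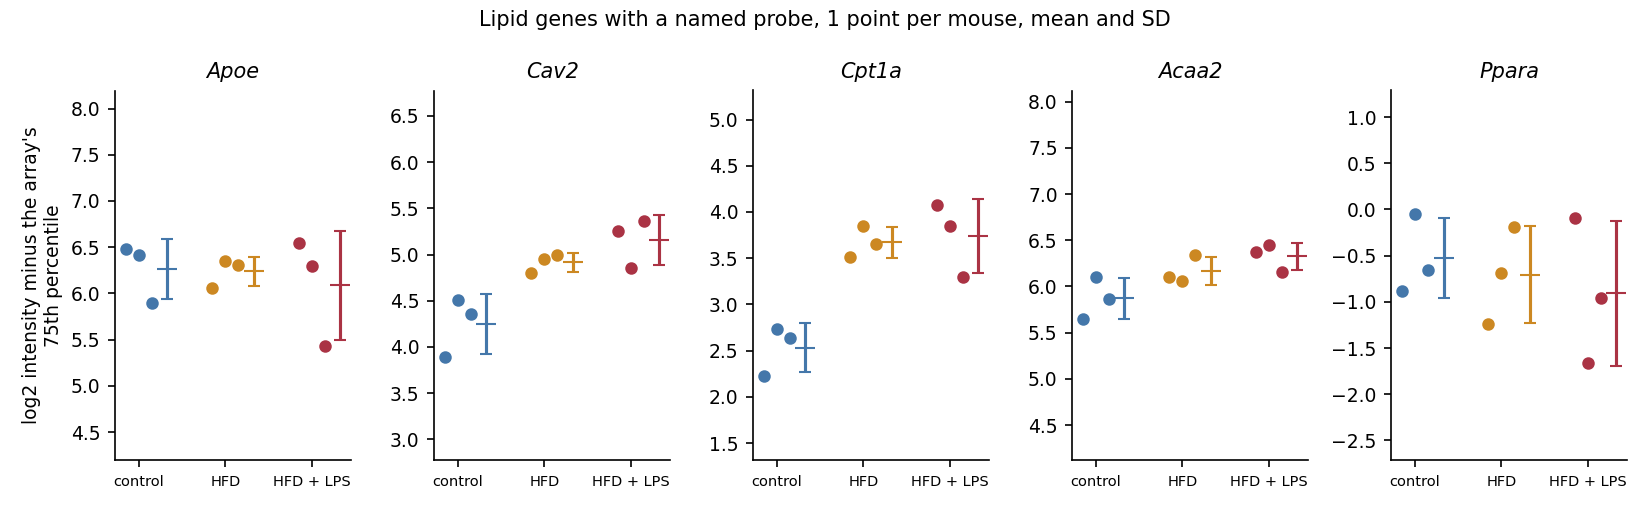
The 5 lipid genes with a named probe in each mouse (points) with group mean and SD (bars, n = 3), as log2 intensity minus the array's 75th percentile (vertical axis), for control, HFD and HFD + LPS (horizontal axis). Each panel spans the same number of log2 units at its own level, since levels of different probes cannot be compared. All HFD mice lie above all control mice for Cpt1a and Cav2, while the groups overlap for Apoe and Ppara.

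The named genes were ranked by how closely their normalised values followed Apoe across the 9 arrays, among the 26 other probes with a symbol that were well above background on all of them. Uhrf1bp1l, which encodes a protein of endosomal membranes, was the most alike, with Pearson's r = 0.77 and Spearman's rho = 0.77 over 9 arrays. It was 5.27, 5.11 and 4.90 in control, 4.89, 4.91 and 5.03 in HFD, and 5.17, 5.19 and 4.83 in HFD + LPS (normalised log2), with its lowest value in the same mouse as Apoe. Its r was 0.71 without the 2 arrays farthest from the median of Apoe (HFD + LPS replicate 3 and control replicate 3) and 0.91 for deviations from the group means. It was the most alike of the named genes after quantile normalisation (0.82), without normalisation (0.76) and with the median over bright probes (0.83), but not after normexp, where its r was 0.58 and that of Taf1a 0.66. Of all 17931 bright probes, 166 (0.926%) had an r at least as high, and a ranking of 26 genes picks its own maximum, so the value is given as a description.

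The likeness of Taf1a and Gsdmd, next in this order, depended on few mice. Taf1a, which encodes a subunit of an RNA polymerase I initiation factor, had r = 0.68 (rho = 0.47), and -0.18 without the 2 arrays. Gsdmd, which encodes the pore-forming protein of pyroptosis, had r = 0.45 (rho = 0.67), and 0.14 without them. Bambi, which encodes a decoy receptor for TGF-β signals, and Mzb1, which encodes a chaperone of antibody-secreting cells, followed with r = 0.22 and r = 0.19, and 0.11 and 0.29 without the 2 arrays. The least alike were Dnajc11 (r = -0.48), a mitochondrial chaperone gene, H2-M2 (r = -0.43), a gene of an MHC class I protein, and Nup50 (r = -0.37), a gene of the nuclear pore. Without HFD + LPS replicate 3 alone these turned to 0.43, 0.45 and 0.72. Over all 9 arrays without normalisation they were 0.48, 0.33 and 0.45, so their negative r depended on that mouse and on the scaling. The points share the array and its scaling, and over all bright probes r ran from -0.98 to 0.94 with a median of -0.033.

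**Figure D5:**
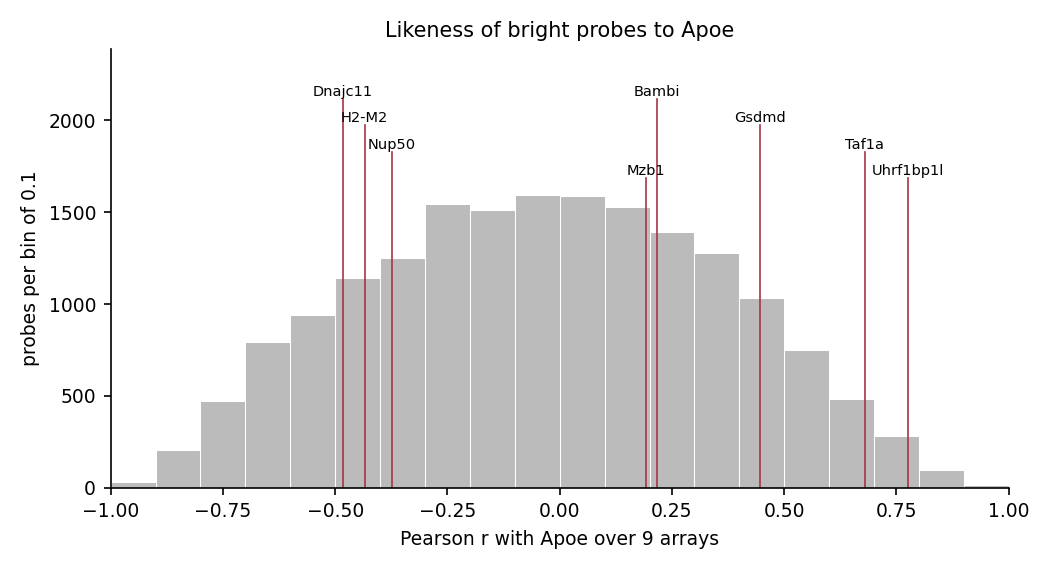
Number of bright probes (vertical axis, bins of width 0.1) by Pearson's r with Apoe over the 9 arrays (horizontal axis), with red lines for the 5 most and 3 least alike genes that have a symbol. The distribution is broad and centred near 0 (median -0.033), and Uhrf1bp1l at 0.77 lies in its upper tail, with 0.926% of probes at or beyond it.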

How the data were processed

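RNA of 9 lungs was freed of rRNA, labelled by random priming and hybridised to 1-colour arrays, 1 per mouse. Per the submitters' processing notes, the scans were read with Agilent Feature Extraction 11.0.1.1, and the deposited intensity values are background-subtracted but not normalised between arrays. The authors also deposited log2 values normalised with GeneSpring GX for 60641 probes, which hold 0 rows for the Apoe probe and were not used. Whether another probe in them reads Apoe could not be told, as those probes could not be named.

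Groups came from the labels. Spots with outlier flags, control spots and 132 design-control or spike-in probes were left out, the remaining spots were combined per probe as a mean of log2 intensities, and the 75th percentile of the array was taken off. Other scalings and another background correction both moved the values of Apoe. Limma 3.58.1 in R 4.3.3 was fitted to the 9 arrays together with a mean per group (6 residual degrees of freedom). Probes entered if they had a value on all 9 arrays and were well above background on 3 or more of the 6 arrays compared. Benjamini-Hochberg adjustment ran over all of them, and an adjusted p under 0.05 was called. The step was tested on simulated data. Depth has no meaning for arrays, and their number limits the precision.

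Probe accessions were matched to RefSeq mouse genes (GRCm38.p6), which named 46 of 50 probes spotted 10 times. As the array design refers to another build, no coordinates are given, and no probe or protein sequence was used here. Apoe and the gene lists were chosen with earlier results of these data known. Apoe and the list members with a named probe are named in full, and of the other genes the 5 most and 3 least like Apoe by Pearson's r. Alternatives were other normalisations, normexp (offset 50, on the median signal), other filters and spot summaries, a fit to 6 arrays, replicate, slide and row blocks, a brightness covariate, array weights, the methods' t-test and leaving out each array. The alternatives for the likeness ranking, the within-row values and the spread without each array were chosen after seeing the data.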

Additional observations from a re-analysis of the deposited data

How the results depend on the processing

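Apoe passed the threshold under no alternative run. Its limma adjusted p (or that of the methods' t-test) ranged from 0.957 to 1.00 for HFD vs. control, from 0.541 to 0.975 for HFD + LPS vs. HFD and from 0.375 to 0.964 for HFD + LPS vs. control, and over these settings the lowest lower bounds of the 95% interval were -1.15, -1.12 and -1.29 and the highest upper bounds, each from another setting, 0.92, 1.00 and 1.14 (log2). Its direction was lower in 14, 18 and 17 of 22 settings and higher in 8, 4 and 5. For HFD vs. control it turned with quantile normalisation (0.037), no normalisation (0.15), normexp (0.083), the brightness covariate (0.066) and array weights (0.045), and ranged from -0.21 to 0.083 when single arrays were left out. For HFD + LPS vs. HFD it turned with no normalisation (0.23), the slide block (0.18) and the brightness covariate (0.041), with a range of -0.38 to 0.18 over arrays left out. For HFD + LPS vs. control it turned with no normalisation (0.38), normexp (0.022), the slide block (0.15) and the brightness covariate (0.11), with a range of -0.40 to 0.15 over arrays left out. The slide block removes the only array of slide 2, so it equals the fit without HFD + LPS replicate 3. The cause of the other turns was not tested.

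The 1 call among the 5 lipid genes in HFD + LPS vs. control became 0 with quantile normalisation, the 75th percentile over bright probes, no filter, the fit to 6 arrays, the replicate block, the row block, the brightness covariate and the methods' t-test. It became 2 with no normalisation, normexp and the strict filter, where Cav2 joined Cpt1a. It ranged from 0 to 1 when single arrays were left out. Ppara changed sign in HFD vs. control (0.0011 with no normalisation, 0.082 with array weights, -0.43 to 0.091 with an array left out), in HFD + LPS vs. HFD (0.18 with no normalisation, -0.61 to 0.18 with an array left out) and in HFD + LPS vs. control (0.18 with no normalisation, -0.78 to 0.0012 with an array left out, the latter without HFD + LPS replicate 2). Cpt1a in HFD + LPS vs. HFD changed sign with quantile normalisation (-0.075), with the 75th percentile over bright probes (-0.036) and with an array left out (-0.10 to 0.29). The number of all probes called in HFD + LPS vs. HFD (74) went from 0 with no filter to 358 with the strict filter, and from 0 to 467 with an array left out. That in HFD + LPS vs. control (1133) went from 0 with the row block, the brightness covariate or no filter to 2226 with no normalisation, and from 9 to 889 with an array left out.

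Same-numbered arrays were treated as sharing only a number, as the correlations of their deviations were between -0.27 and 0.37 and not all above 0.1. The highest, 0.37, was that of control replicate 1 and HFD replicate 1, and what this pair shares was not tested. With the replicate block the values of Apoe were the same (-0.025, -0.15 and -0.18, adjusted p = 1.00, 0.824 and 0.739 in limma), and the counts of called probes were 0, 48 and 934. The deposited log2 table was not run as an alternative because it has no row for the Apoe probe.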
